A study of Mus musculus with 4 samples.

Results

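The regions described here are stretches of accessible chromatin that were called in E10.5 mouse limb buds, had no counterpart in the E9.5 list and lay close to the start of a protein-coding gene. There were 775 of them, among 46765 regions in the E10.5 list and 89378 regions in the lists of both stages. They were selected on measured values: presence in the E10.5 list, absence of any overlap of 1 bp or more with a region in the E9.5 list, location on 1 of the 19 autosomes, and a centre within 2.5 kb of an annotated transcription start. Of the 45648 autosomal E10.5 regions, 35% had no E9.5 counterpart, whereas of the 14894 autosomal E10.5 regions near a start the share was 5.2%. Among the 15961 E10.5-only regions on autosomes, 4.86% were near a start. These shares follow from the selection and are given as a description.

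Chromatin accessibility was mapped by ATAC-seq, in which the Tn5 transposase inserts sequencing adapters into DNA that is not shielded by nucleosomes. The embryos were wild-type mice of the NMRI strain, untreated, with 2 biological replicates at each of 2 stages. The E9.5 samples, for which the protocol gives a slightly later time on that day, were the paired forelimb buds of 1 embryo with the adjoining trunk still attached, and the E10.5 samples were a pair of forelimb buds of 1 embryo without it. For E10.5 the tissue label also names the hindlimb, whereas the source name and the protocol name the forelimb only. Stage and the presence of trunk tissue therefore cannot be told apart, and in a mixed tissue neither can fewer cells of a type and less accessibility per cell. Each stage was represented by 1 combined region list with 1 score per region, so the spread between embryos is not known and no test between stages was made. The score rises with the strength of the call, a score of 100 corresponding to a p-value of 1e-10 and a score of 60 to 1e-06. It also rises with sequencing depth, which is unknown. A region missing from a list was not called there, which does not show that signal was absent.

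Promoters of vertebrate genes are broadly of different kinds. Many, including those of most housekeeping and developmental regulator genes, lie in CpG islands, stretches rich in G, C and the dinucleotide CG that are usually unmethylated and accessible in most tissues whether or not the gene is strongly transcribed. Others are poor in CG and tend to belong to genes used in particular tissues, such as immune, sensory or differentiation genes. The sequence beside a start can in addition hold enhancers, which are bound by tissue-specific factors.

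Central windows of 300 bp of 6 of the regions show the range of sequence. All are given 5′ to 3′ on the plus strand of mm9 with each CG in capitals. Dcn, Fgf7 and Tlr4 were chosen as genes without any E9.5 promoter region whose start lay inside the E10.5-only region, Ltbp1 and Prrx1 as genes where the region lay over an additional start, and Zmym2 as the most GC-rich window. Dcn, chr10:96942323-96942622, with 5 CG:
Dcn: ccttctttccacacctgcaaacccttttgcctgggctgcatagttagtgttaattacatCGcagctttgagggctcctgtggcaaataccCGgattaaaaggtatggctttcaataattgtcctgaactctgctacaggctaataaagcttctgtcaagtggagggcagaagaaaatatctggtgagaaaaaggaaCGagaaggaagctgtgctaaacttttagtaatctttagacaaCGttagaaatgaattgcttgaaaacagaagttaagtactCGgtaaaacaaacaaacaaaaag
Fgf7, chr2:125860268-125860567, with 8 CG:
Fgf7: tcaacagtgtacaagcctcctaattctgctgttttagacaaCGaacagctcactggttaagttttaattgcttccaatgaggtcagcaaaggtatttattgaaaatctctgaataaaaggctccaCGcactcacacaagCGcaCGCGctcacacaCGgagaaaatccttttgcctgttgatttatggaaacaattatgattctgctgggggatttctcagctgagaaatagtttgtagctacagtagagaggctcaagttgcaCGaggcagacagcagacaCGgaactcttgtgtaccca
Tlr4, chr4:66489066-66489365, with 6 CG:
Tlr4: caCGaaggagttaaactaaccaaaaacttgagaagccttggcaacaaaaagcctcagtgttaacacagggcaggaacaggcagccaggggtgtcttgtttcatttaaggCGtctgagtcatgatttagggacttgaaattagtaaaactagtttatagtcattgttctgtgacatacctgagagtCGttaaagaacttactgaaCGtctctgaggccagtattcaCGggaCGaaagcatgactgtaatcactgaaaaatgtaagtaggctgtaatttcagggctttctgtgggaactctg
Ltbp1, chr17:75577816-75578115, with 9 CG:
Ltbp1: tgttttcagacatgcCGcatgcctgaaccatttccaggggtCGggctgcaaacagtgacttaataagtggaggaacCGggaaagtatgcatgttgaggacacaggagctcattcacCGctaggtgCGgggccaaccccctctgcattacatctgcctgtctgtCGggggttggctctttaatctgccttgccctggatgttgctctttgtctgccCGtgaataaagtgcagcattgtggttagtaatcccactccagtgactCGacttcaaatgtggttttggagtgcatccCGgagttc
Prrx1, chr1:165219652-165219951, with 3 CG:
Prrx1: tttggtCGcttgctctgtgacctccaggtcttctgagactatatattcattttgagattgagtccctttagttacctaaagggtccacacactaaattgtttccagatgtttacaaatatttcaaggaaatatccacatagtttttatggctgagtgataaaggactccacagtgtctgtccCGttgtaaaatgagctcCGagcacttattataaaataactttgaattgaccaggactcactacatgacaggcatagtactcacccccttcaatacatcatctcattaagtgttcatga
Zmym2, chr14:57504958-57505257, with 36 CG:
Zmym2: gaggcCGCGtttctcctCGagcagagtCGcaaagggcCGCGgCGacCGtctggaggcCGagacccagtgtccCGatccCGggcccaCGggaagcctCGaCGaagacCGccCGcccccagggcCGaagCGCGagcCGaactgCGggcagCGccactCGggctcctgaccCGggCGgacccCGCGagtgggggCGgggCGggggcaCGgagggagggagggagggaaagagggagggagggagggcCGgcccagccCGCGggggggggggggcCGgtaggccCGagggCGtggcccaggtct
Over all 775 windows the median was 4 CG, and 42 windows (5.42%) held none. In the 14119 promoter-proximal regions shared with E9.5 the median was 24 CG, so the CG counts of the Dcn and Prrx1 windows were close to the median of the set and that of the Zmym2 window was not.

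The 775 regions belonged to 713 genes, 3.33% of the 21418 autosomal protein-coding genes, with 660 genes having 1 region, 44 having 2 and 9 having 3. Their median score was 135.0 (95% interval of the median 129.6 to 141.0), with an interquartile range of 105.7 to 203.7 and extremes of 62.1 and 1168.5. Most passed the stringent limit but ranked low in the list: 639 (82.5%) scored at least 100, 28 scored at least 500, 144 (18.6%) stood in the higher-scoring 50% of the E10.5 list, and 0 of the 775 reached its top decile. Shared promoter-proximal regions had a median score of 691.4. E10.5-only regions away from starts had a median of 153.9 (152.1 to 155.7), an interval above that of the promoter-proximal regions. Per autosome the median of the promoter-proximal regions minus that of the distal ones was -16.6 ± 18 (SD, n = 19 autosomes), lower on 15 of the 19. The SD gives the scatter between autosomes and is not the uncertainty of the mean difference. Intervals in this text treat regions as independent and cover counting error only.

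The regions were also narrow. Their median width was 835 bp (822 to 846, range 372 to 2869), against 1416 bp in shared promoter-proximal regions and 865 bp (862 to 868) in E10.5-only distal regions. Their median minus that of the shared class was -591.8 ± 74.4 bp over the autosomes, in the same direction on 19 of 19. Against the distal class it was -24 ± 32 bp, narrower on 15 of 19, a small difference that varied between autosomes. A wider region can more easily overlap an E9.5 region, so the rule favours narrow ones. Where only a reciprocal overlap of at least 50% counted as shared, the median width of the set was 936 bp. The part of the rule in the difference from the shared class was not tested.

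Few of the regions covered a start. An annotated start lay inside 203 of the 775 (26.2%, Wilson 95% interval 23.2 to 29.4), whereas 291 lay wholly upstream of their nearest start and 281 wholly downstream. Among shared promoter-proximal regions the share with a start inside was 86.8%, and among the 2118 regions of the opposite kind, near a start and called only at E9.5, it was 51.9%. The share minus that of the E9.5-only class was -26 ± 10.3 percentage points over the autosomes and had the same direction on 19 of 19. Against the shared class it was -61.2 ± 6.02 percentage points, again on 19 of 19. The median distance from the centre to the nearest start was 1283 bp, against 125 bp in the shared class, although the rule fixes its upper limit for both. The plot of centres along the gene shows a concentration on both sides of the start, with 96 regions in the 250 bp upstream of it and 60 in the 250 bp downstream. The other bins of 250 bp held between 18 and 48 regions each.

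**Figure D1:**
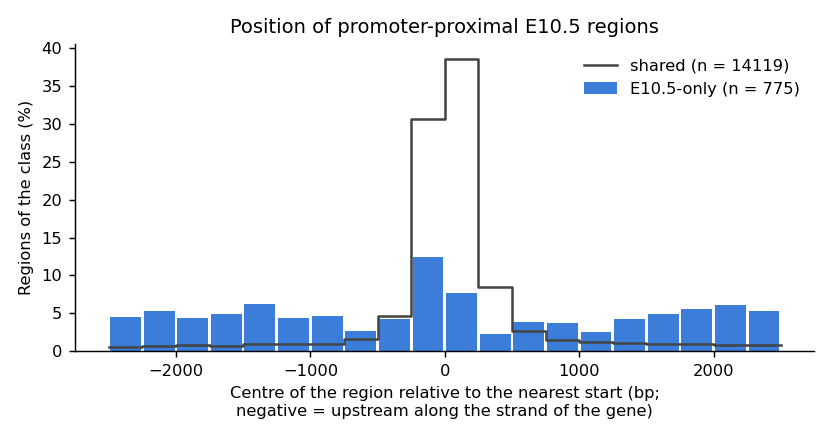
Position of the centre of each promoter-proximal E10.5 region relative to its nearest protein-coding start, in bins of 250 bp (horizontal axis, bp, negative upstream), as a percentage of its class (vertical axis). Bars are the 775 E10.5-only regions and the line is the 14119 shared regions. The bin just upstream of the start holds 12.4% of the E10.5-only and 30.7% of the shared regions.

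By annotation, the centre lay in an intron for 472 regions (60.9%), outside genes for 208 (26.8%), in an untranslated region for 46, in a coding exon for 34 and in a non-coding exon for 15. Many of the nearest starts were not the outermost start of the gene, and which start was mainly used was not tested. With starts of protein-coding transcripts only there were 594 regions, against 775 with all annotated starts of these genes. Genes with an E10.5-only region had a median of 4 annotated starts, against 2 for all autosomal protein-coding genes, and in 322 regions (41.5%) the nearest start was the outermost of its gene. A gene with more starts has more places at which a region can count as promoter-proximal, and the part of this in the counts was not tested.

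GC content set the regions apart from other promoter-proximal chromatin. The median GC content of the central 300 bp was 46.7% (46 to 47.3), with extremes of 29.7% and 77.3%. It was 64.3% in shared promoter-proximal regions, 57.3% in E9.5-only promoter-proximal regions and 44% in E10.5-only distal regions. Over the autosomes the median GC of the regions minus that of the shared class was -17.6 ± 2.44 percentage points, and minus that of the E9.5-only class -10.1 ± 2.53, lower on 19 of 19 autosomes in both cases. They were 2.78 ± 1.37 points higher than the distal class, also on 19 of 19. Windows with GC above 50% and an observed over expected CG ratio above 0.6, the usual definition of CpG-island sequence without its length criterion, made up 24 of the 775 (3.1%, 2.09 to 4.57), compared with 70.6% of shared, 28.9% of E9.5-only and 0.448% of distal E10.5-only regions.

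The low GC content was also present in the regions that covered a start and in regions of like score. The 203 regions with a start inside had a median GC of 49.3% (48.7 to 50.3) and 15 CpG-island windows (7.39%), while the 12256 shared regions with a start inside had 65.7% GC and 77.7% CpG-island windows. Within the interquartile range of the scores, 388 of the regions had a median GC of 47.3% (46.7 to 48) and the 1807 shared promoter-proximal regions in the same score range had 59% (58.7 to 59.7). Beyond 500 bp from a start the values were 45.7% in 568 regions and 55.3% in 2468 shared regions.

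Read the other way, the share of promoter-proximal E10.5 regions that had no E9.5 counterpart fell with GC content. It was 43.6% (95 of 218) below 40% GC, 40.6% (203 of 500) from 40 to 45%, 24.9% (244 of 978) from 45 to 50% and 10.7% (164 of 1538) from 50 to 55%. Above this it was 2.16% (47 of 2174), 0.539% (14 of 2597) and, at 65% GC or more, 0.116% (8 of 6889). The E9.5-only share of promoter-proximal E9.5 regions took another course, from 18.6% below 40% GC to 26.3% between 45 and 50% and 7.39% at 65% or more. The GC dependence was also present away from starts, where the E10.5-only share of distal regions went from 81.2% below 40% GC to 0.935% at 65% or more. GC content can affect the efficiency of transposition, amplification and sequencing, and its technical part in these shares was not tested.

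**Figure D2:**
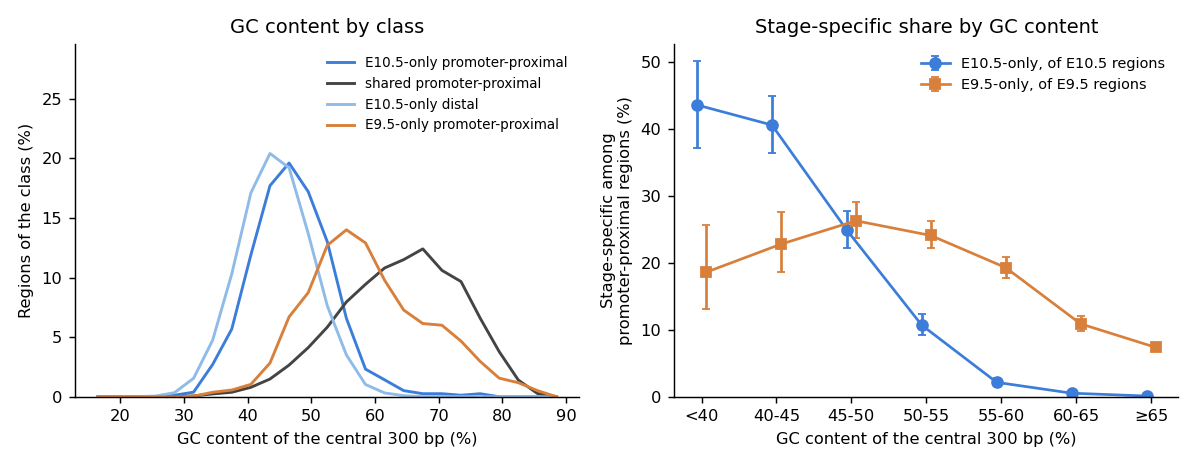
Left, GC content of the central 300 bp (horizontal axis, %) in bins of 3 percentage points as a percentage of each class (vertical axis) for 4 classes of regions. Right, share of promoter-proximal regions called at 1 stage only (vertical axis, %, bars are Wilson 95% intervals) by GC content, for the E10.5 list and for the E9.5 list. The E10.5-only share drops from 43.6% to 0.116%, and the E9.5-only share stays between 7.39% and 26.3%.

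At 65% GC or more only 8 of the 775 regions were found, and the 5 richest are given here. Zmym2, encoding a zinc finger protein of histone deacetylase complexes, had 77.3% GC, a score of 112.89 and a centre 382 bp upstream of the start. An E9.5 region lay 83 bp away. Htra4, a secreted serine protease gene, had 75.7% GC and a score of 62.99 with its start inside. Rnf39 (73.3%), 4930447C04Rik (71.3%) and Zar1 (70%), a maternal-effect gene of the oocyte, scored 150.61, 108.48 and 74.17. Of these 5 only Rnf39 scored above the median of the set. At the other extreme, the windows of Iqub (29.7% GC), Gm9871 (30%), Olfr608 (30.3%), Cyth3 (32.7%) and Gm11808 (33%) scored between 102.27 and 196.46.

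The state of each gene at E9.5 divided the regions into 3 nearly equal groups. For 261 regions (33.7%, 30.4 to 37.1) the E9.5 list had a region centred within 2.5 kb of the same start. Whether the E10.5-only region was a separate element or a shifted call was not tested. For 284 (36.6%) the E9.5 list had a region only at another start of the gene. For 230 (29.7%, 26.6 to 33), in 213 genes, it had none at any start. A start lay inside the region in 18, 90 and 95 regions of these groups. Median scores were 129.4, 144.5 and 133.7, and median GC contents were 46%, 46.7% and 47.3%, so the groups resembled each other in strength and composition. The nearest E9.5 region was a median of 545 bp away in the first group, 16060 bp in the second and 24599.5 bp in the third. The shorter gap of the first group follows from its definition, and so in part does its low count of regions with a start inside. Over all 775 regions the median gap was 7998 bp, with 122 (15.7%) under 500 bp from an E9.5 region and 39 at 100 kb or more.

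**Figure D3:**
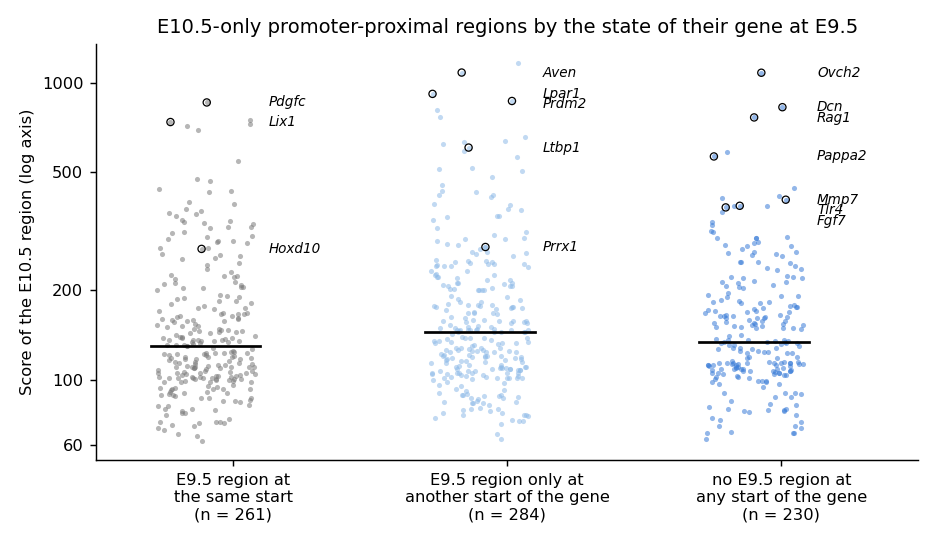
Score of each of the 775 regions (vertical axis, logarithmic) in the 3 groups defined by where the E9.5 list had a region at the same gene (horizontal axis), with black lines at the group medians of 129.4, 144.5 and 133.7 and circles on the named genes. The groups overlap over nearly the whole range of scores, and each holds a few regions above 700.

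Among genes with an E9.5 region at the same start, some of the highest-scoring regions lay upstream of the start or in the first part of the gene. Pdgfc, a platelet-derived growth factor gene, had a region 1774 bp upstream of its start at chr3:80837980-80839148 with a score of 859.55, 466 bp from the nearest E9.5 region. Lix1, a gene first described for its expression in the limb, had an intronic region 2370 bp downstream of the start with a score of 738.34. Nfyc, a subunit of the CCAAT-binding factor, had a region scoring 714.01 located 1565 bp upstream. Fam69c scored 725.76 at a distance of 1383 bp. Dtd1, which encodes an enzyme that removes D-amino acids from tRNA, had the widest region of all, 2869 bp with a score of 691.52, followed by Macrod2 (2073 bp), Dcn (1960 bp), Frmd6 (1877 bp) and Gbe1 (1742 bp).

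Among genes with an E9.5 region only at another start was the highest score of the set, 1168.46, at Gm606, a predicted gene, in a region 1980 bp upstream of the outermost start at chr16:26991330-26992750. Aven, encoding an inhibitor of caspase activation, followed with 1084.09 in a region at chr2:112397283-112398446 whose nearest start lay 1574 bp away and whose nearest E9.5 region lay 55194 bp away. Lpar1, a receptor for lysophosphatidic acid, had 918.78 and Prdm2, a zinc finger gene of the histone methyltransferase family, 869.36. Both regions were intronic and had no start inside. Myo6, encoding myosin VI, and Ltbp1, which encodes a protein that stores latent TGF-β in the extracellular matrix, had regions that covered a start, with scores of 810.74 and 605.63. The Ltbp1 region at chr17:75577294-75578638 lay 26739 bp from the nearest E9.5 region. Prrx1, a homeobox gene of limb mesenchyme, had a region over an intronic start at chr1:165219239-165220364 with a score of 279.96, 17216 bp from the nearest E9.5 region.

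The 230 regions of genes without any E9.5 promoter region were led by those of Ovch2, Dcn and Rag1. Ovch2, an ovochymase protease gene, scored 1082.58 with a region 1007 bp upstream of the start. Dcn, which encodes decorin, a small proteoglycan of connective tissue that binds collagen, scored 828.51 with a region of 1960 bp over its start at chr10:96941493-96943452. The nearest E9.5 region was 69050 bp away. Rag1, the recombinase gene of lymphocytes, scored 765.22. Its region held 2 starts, but Rag1 has only 1 annotated start, so the other belongs to another gene. An E9.5 region lay 2682 bp away, with B230118H07Rik as its nearest gene. D630042F21Rik scored 585.23 and Pappa2, a protease of insulin-like growth factor binding proteins, 565.3. Next were Zfp141 (442.4), Vwa5a (416.49), Gm14325 (409.91), the matrix metalloprotease gene Mmp7 (404.11) and the olfactory receptor gene Olfr455 (386.3). Olfr455 had no start inside, its region lying 1400 bp upstream.

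Fgf7, which encodes a fibroblast growth factor made by mesenchyme and received by epithelium, scored 380.66 with a region centred 24 bp downstream of its start at chr2:125859891-125860944. Genes without an E9.5 promoter region and with a start inside had 95 regions in 94 genes. Several were singled out after their values were seen, most of them because they are known from connective tissue or innate immunity. They are examples only. By family, 1 of 42 collagen genes (2.38%), 0 of 52 chemokine and receptor genes and 7 of 80 interleukin and receptor genes (8.75%) had a region. Over all genes it was 3.35%. Tlr4, the receptor for bacterial lipopolysaccharide, scored 385.48 and its region at chr4:66488388-66490043 was centred 20 bp upstream of the start. Mfap5, a microfibril protein gene, scored 211.64, the pericyte gene Rgs5 173.08, Pdgfrl 152.14 and the retinaldehyde dehydrogenase gene Aldh1a1 141.04. C1ra, a complement protease gene, scored 127.63 and Tlr6 114.61.

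In no tissue or pathway list did more than 10% of the genes have such a region. Of 67 limb patterning genes 5 (7.46%) had an E10.5-only promoter-proximal region, against 3.35% of 21281 autosomal protein-coding gene symbols, and the median score of these 5 regions was 275.9 against 135.0 over all 775. Among them were Prrx1, Hoxd10, Prrx2 and Hoxa10. Hoxd10, a homeobox gene of the distal limb, had a region 1373 bp upstream of its start with a score of 275.87, Prrx2, a paralogue of Prrx1, had one 1608 bp downstream with 257.82, and Hoxa10 had one of 73.63. For each of the 5 the E9.5 list already had a promoter region, and 66 of the 67 limb genes had one at E9.5 against 60 at E10.5. Hoxd8 was the remaining Hox gene, with 86.71, so 3 of 39 Hox genes had such a region.

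Of 38 cartilage and bone genes 3 (7.89%, against 3.35% of all genes) had a region, and none of the 3 had an E9.5 promoter region, as for 29.7% of all 775 regions: Dcn (828.51), Wisp3 (155.27), a gene of the CCN family of matrix proteins, and Spp1 (114.18), which encodes osteopontin. Wisp3 and Spp1 had no start inside. Of 40 skeletal muscle genes 4 (10%, against the same 3.35%) had regions: fast troponin T, Tnnt3, with 315.07, titin, Ttn, with 155.01 and 123.68 in 2 regions, nebulin, Neb, with 108.72, and the myosin light chain gene Myl1 with 78.56. Only the Neb region covered a start. The median score of the 5 muscle regions was 123.7, below that of the whole set.

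Signalling lists had shares somewhat above the 3.35% of all genes, on counts of 2 to 5 genes. Of 63 BMP and TGF-β pathway genes 5 (7.94%) had a region: Ltbp1 (605.63), the BMP co-receptor gene Rgmb (176.46), the ligand gene Gdf7 (157.55), the inhibitory Smad gene Smad7 (138.64) and the type I receptor gene Bmpr1b (101.45). All 5 genes had an E9.5 promoter region, and only Ltbp1 had the start inside. Of 73 Wnt pathway genes 3 (4.11%) had one: the co-receptor gene Lrp6 (242.00) and the feedback inhibitor genes Axin2 (212.26) and Nkd1 (158.14). Of 42 FGF pathway genes 2 (4.76%) had one, Fgf7 and the ETS factor gene Etv1 (221.02). None of 26 genes of cholesterol synthesis did, and all 26 had a promoter region at both stages.

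Markers of other cell types that a limb bud or trunk could hold were counted where their symbol was found in the annotation. Their shares ran from 0 to 5%, on both sides of the 3.35% over all genes, with 0 to 2 genes per list. For surface ectoderm 1 of 39 genes had a region (the basal keratin gene Krt14, 80.93), for endothelium 1 of 40 (Mmrn2, 101.05), for erythroid cells 1 of 30 (the water channel gene Aqp1, 281.28), for macrophages and other leukocytes 2 of 40 (P2ry12, a purinergic receptor gene of microglia, 300.06, and Runx1, 71.09), and for neurons 1 of 37 (the neurofilament gene Nefm, 81.24). For neural crest and glia it was 0 of 28 and for trunk mesoderm and body wall 0 of 38. None of these 6 counted regions contained a start. Tfap2b of the neural crest list and Map2 of the neuron list were left out of these counts. The annotation names them Tcfap2b and Mtap2, and both had a region, with scores of 77.15 and 106.53. The number of genes with a promoter region was lower at E10.5 than at E9.5 in the ectoderm list (19 against 27), the erythroid list (14 against 19), the neuron list (32 against 37) and the trunk mesoderm list (30 against 37), and equal in the macrophage list (10). Over all genes it was 13449 against 14041. The part of cell composition in the E10.5-only regions was not tested.

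Immune gene families are given here beside the 3.35% of all genes and the median score of 135.0 over all 775 regions. Of 80 interleukin and interleukin receptor genes 7 (8.75%) had 8 regions, led by Il1rl1, the interleukin 33 receptor (300.49), Il31ra (249.03), Il16 (203.80), Il5ra (174.68) and Il13 (171.47). A start lay inside 4 of the 8, among them those of Il1rl1 and Il31ra. The median score of the 8 was 173.1. Of 60 C-type lectin and killer cell receptor genes 5 (8.33%) had a region, with scores between 69.96 and 113.77. Of 59 serpin genes, which encode protease inhibitors, 4 (6.78%) did, led by Serpinb13 with 338.87. No region was near any of 52 chemokine and chemokine receptor genes, 35 MHC genes or 53 defensin genes.

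Some regions stood close together on the chromosome. On chromosome 6, 6 of the 8 promoter-proximal E10.5 regions between 129 and 130 Mb had no E9.5 counterpart: those of D630042F21Rik, Clec12a, 4922502D21Rik, Clec1a, Clec2d and Klre1, in the cluster of natural killer cell lectin genes. Their scores, other than that of D630042F21Rik, stayed at or below 113.77. Chromosome 6 also had the highest share of E10.5-only among promoter-proximal regions, 76 of 839 (9.06%, 7.3 to 11.2), while chromosomes 11 (2.89%) and 7 (2.9%) had the lowest. On chromosome 2, 5 of 9 promoter-proximal regions between 177 and 178 Mb and 3 of 4 in the neighbouring megabase had no E9.5 counterpart. They belonged mostly to predicted genes, and among the 5, 11.9% to 73.2% of the 32-base words of the central 300 bp occurred once in the genome. The flanks of the regions were not counted. In the set as a whole 12 regions (1.55%) had under 50% of such words, compared with 0.687% of shared promoter-proximal regions, and Gm14325, Etohi1, Gm14410 and Zfp119b were the highest-scoring of these. Reads from near-identical copies cannot be placed with certainty, so the gene named for these 12 is uncertain. The 9 genes with 3 regions each were Pappa2, Etv6, Ppm1h, Slit2, Ldlrad3, Tbc1d4, Ankrd22, Arhgap26 and Dab2ip. In Ppm1h, a protein phosphatase gene, they scored 562.85, 200.81 and 162.53. In Slit2, which encodes a secreted guidance ligand, they scored 107.58, 104.19 and 92.81.

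Over all windows, the shares with a match to the GC box, the homeobox core, the posterior Hox sequence, both E-boxes and the SMAD core site lay between those of shared promoter-proximal and E10.5-only distal regions. In windows of like GC this order did not hold for the GC box and the Twist and Hand E-box. The GC box GGGCGG, recognised by Sp and Klf factors, was found on either strand in 6.58% of the windows (5.04 to 8.55), compared with 59.7% of shared, 35.6% of E9.5-only promoter-proximal and 4.25% of E10.5-only distal windows, and 25.5% of all E10.5 windows. Windows of 42.7% to 50.7% GC are called windows of like GC here. Among them the GC box was found in 2.77% of 397 of the E10.5-only windows, 12.8% of 1126 shared windows and 4.54% of 7421 distal windows. Within this range shared windows leaned to the upper end and distal windows to the lower end, and CG content was not matched. In the windows printed above the GC box occurred only in that of Zmym2, with 3 matches.

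The homeobox core TAATTA was found in 9.42% of windows (7.56 to 11.7), above the 1.85% of shared and 2.97% of E9.5-only promoter-proximal windows but below the 16.1% of E10.5-only distal windows. It was found in 8.78% of all E10.5 windows. The share minus that of the distal class was -6.46 ± 4.93 percentage points over the autosomes, and it was above the distal share on 1 of the 19. In windows of like GC the shares were 10.8%, 7.46% and 13.6% for E10.5-only, shared and distal regions. The sequence CAATAAA, preferred by posterior Hox proteins, was found in 5.68% of the E10.5-only, 1.68% of shared and 5.54% of all E10.5 windows, and its share minus that of the distal class was -3.89 ± 3.68 percentage points, higher on 2 of 19 autosomes. In windows of like GC its shares were 6.55%, 5.51% and 8.1% for E10.5-only, shared and distal regions. The E-box CAGATG gave 28.6% in E10.5-only, 11.7% in shared and 34.2% in distal windows (25.3% of all), and 28.7%, 20.2% and 34.7% in windows of like GC. The palindrome CATATG, an E-box of Twist and Hand factors, gave 6.97%, 1.29% and 9.21% (5.28% of all), and in windows of like GC 8.82%, 4.88% and 8.07%, there above the distal share. The SMAD core site CAGACA was found in 24.1% of the E10.5-only, 15.5% of shared, 25.4% of distal and 22.8% of all E10.5 windows. In windows of like GC its shares were 26.4%, 24% and 27.7%, so the distance from the shared class was smaller than over all windows.

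Where a start lay inside the region, a TATA sequence (TATAAA or TATATA) between 40 and 20 bp upstream of it was found for 7 of 203 (3.45%, 1.68 to 6.95), against 0.987% of 12256 shared and 1.55% of 1099 E9.5-only regions. The E9.5-only share lay just below the interval of the first value, and the intervals of both shares overlapped (0.968 to 2.46 for E9.5-only). A match is a stretch of letters and does not show that a factor was bound.

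**Figure D4:**
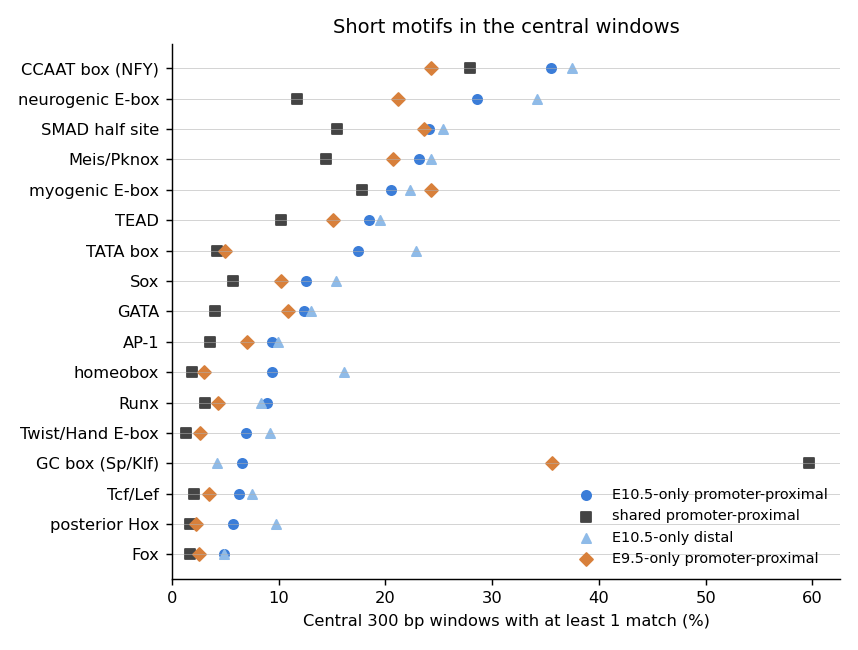
Share of central 300 bp windows with at least 1 match (horizontal axis, %) for each short motif found in at least 4% of the E10.5-only promoter-proximal windows (vertical axis, named by factor), in 4 classes of regions. The GC box separates shared promoter-proximal windows (59.7%) from the E10.5-only ones (6.58%), and the homeobox core is more frequent in E10.5-only distal windows (16.1%).

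The limits of the rule cut through a continuous range. Just inside the distance limit were the regions of Socs2 (2495 bp from the start, score 120.05), Gm9989 (2495 bp, 107.02) and Irs3 (2492 bp, 152.08), and just outside were those of Grsf1 (2509 bp, 233.48), Pde3a (2509 bp, 187.56) and Numbl (2511 bp, 62.35). The regions that escaped an overlap most narrowly were those of Grik2 (8 bp from an E9.5 region, score 246.95), Sntg1 (14 bp, 102.83) and Gm14401 (17 bp, 129.38). Those left out by the smallest overlaps were at Cadps (3 bp, 120.59), Dip2a (7 bp, 175.4) and Lix1 (10 bp, 237.7).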

How the data were processed

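ATAC-seq libraries of mouse limb buds, 2 replicates at each of 2 stages, were sequenced by the authors, who aligned reads to mm9 with Bowtie 1.1.0, keeping unique placements, called peaks with MACS 1.4 without a control library and combined replicates with MSPC, using limits of 1e-10 and 1e-06 for stringent and weak peaks. The deposited score of each region derives from its best MACS p-value, so replicate values and depth are not known from the lists, and a score cannot be compared between stages. Starts of 22380 protein-coding genes (70064 gene and start pairs) came from GENCODE vM1 on NCBIM37, the assembly of mm9. Chromosome lengths were checked, and 0 regions passed a chromosome end. The gene of a region is that of its nearest start. GC content, CG counts and motifs were computed in the central 300 bp with Python 3.11.15, pandas 2.3.3, scipy 1.17.1 and pysam 0.24.0, after the overlap and distance functions had been tested on simulated regions. Medians carry order-statistic intervals and shares carry Wilson intervals at 95%. Differences between classes are given as mean ± SD over the 19 autosomes, as a description. No test was made, since each stage has 1 list. The regions, gene lists, families and motifs were chosen with earlier results of these data known. The comparisons within a score range, beyond 500 bp and over starts were added after seeing the data. Named are the 15 highest-scoring and 5 widest regions, the 5 of highest and 5 of lowest GC content, the 10 highest-scoring of genes without an E9.5 promoter region, genes with 3 regions, up to 5 genes by score per list or family, and 3 regions on each side of a limit. Alternatives changed the distance limit, the overlap, the score limit, the set of starts and the chromosomes. Some regions that meet these rules are not reported here by name.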

Additional observations from a re-analysis of the deposited data

Results flagged for a closer look

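The X chromosome lies outside the autosomal set and held signal of the same kind. Of its 490 promoter-proximal E10.5 regions, 42 (8.57%, Wilson 95% interval 6.4 to 11.4) had no E9.5 counterpart, against 5.2% on the autosomes together. Single autosomes ran from 2.89% (chromosome 11) to 9.06% (chromosome 6), so the X share lay within their range. The part of embryo sex in the X share was not tested. The 42 X regions had a median score of 145.2 and a median GC content of 47%. The highest-scoring were those of Capn6, a calpain family gene (533.79), Frmpd4 (433.0) and Gpc3, a glypican that binds growth factors at the cell surface (386.67). The Y chromosome had 0, with 23 E10.5 regions of any position.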

How the results depend on the processing

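Of 55 recomputed values under 10 alternatives, 33 stayed within 1.5 times the reported count or within the 95% interval of the reported value, and 22 moved. With centres within 1 kb of a start there were 323 regions, 153 of them in genes without an E9.5 promoter region, with a median GC of 48.3% and a start inside 62.8%. Within 5 kb there were 1446, with a start inside 14%. Measured from the region's edge, 22.2% held a start. Requiring a reciprocal overlap of 50% gave 1855 regions with a median score of 176.5, a width of 936 bp, a GC of 53.7% and a start inside 45.3%, so the size of the set depends on how overlap is defined. Counting E9.5 regions within 500 bp as shared gave 29.4% with a start. A score of at least 100 gave a median score of 152.1 and width of 857 bp. The higher-scoring 50% of the E10.5 list gave 144 regions, 38 of them in genes without an E9.5 promoter region, a median score of 327.7, a width of 1105.5 bp, a GC of 45.5% and a start inside 31.9%. The GC of whole regions was 44.9%. In each alternative the median GC stayed below 64.3%, the value of shared promoter-proximal regions under the main rule and in the central 300 bp. The shared class was not recomputed under the alternatives, so its difference from the set is not known for them. No paired analysis was possible because the replicates of a stage were merged by the authors into 1 list, and for the same reason no replicate could be left out. Depth, and with it the number of low-scoring E9.5 regions that could have been missed, is unknown.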

Other observations

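Receptor and channel genes were among those with E10.5-only promoter-proximal regions. Of 68 genes for subunits of glutamate, GABA, glycine and acetylcholine receptors, 6 (8.82%) had 7 regions, against 3.35% of all autosomal protein-coding genes. Among them were Gabrr3 (score 289.41), Grik2 (246.95), Gabrb1 (163.74) and Gabrb2 (89.39), and a start lay inside the regions of Gabrr3 and Gabrb1. Of 91 potassium channel genes 7 (7.69%) had a region, led by the accessory subunit gene Kcnmb2 (177.5). No test of these shares was made. Of 356 solute carrier genes 11 (3.09%) had one, close to the share over all genes, and the highest-scoring was that of the glutamate transporter gene Slc1a3 (591.48).

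Large sensory families were nearly absent. Of 1106 olfactory receptor genes 5 (0.452%) had a region, with scores from 111.54 to 386.3, and of 326 vomeronasal receptor genes 1 did (Vmn2r7, 130.58). At E9.5 a promoter region was listed for 2 of the olfactory receptor genes and at E10.5 for 8. Over all autosomal protein-coding genes the share with an E10.5-only promoter-proximal region was 3.35%, at which a list of under 100 genes would hold few or none. Such a region belonged to 0 of 27 semaphorin and plexin genes, of which 26 had a promoter region at E10.5. The same held for 0 of 21 Eph receptor and ephrin genes (20 with a promoter region at E10.5) and 0 of 67 core histone genes (58). These lists are too small for a count of 0 to set them apart from all genes.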
